A study of Mus musculus with 8 samples.

Results

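The chemokines and their receptors were taken as the protein-coding mouse genes whose symbol is Ccl, Cxcl, Ccr or Cxcr followed by a number and, in some, a letter. The rule gave 53 genes of 21900 protein-coding genes in the RefSeq annotation of GRCm38.p6, of which 37 are ligands and 16 are receptors. Ccl21c lies on an unplaced scaffold, so 52 genes could be searched. Peaks of open chromatin within 10 kb of each gene body were collected from 8 ATAC-seq peak lists, an assay that marks accessible DNA by letting the enzyme Tn5 cut it and attach sequencing adapters. The rule uses gene names and no measured value, and the family was picked for study with earlier results of these data known.

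The cells were BV2, an immortalised mouse microglial line. They were cultured by themselves (monoculture) or on top of GL261, a mouse glioma line (co-culture), and both cultures were then kept for 16 h at 21% oxygen (normoxia) or below 0.1% oxygen (hypoxia). The 4 groups were monoculture normoxia, monoculture hypoxia, co-culture normoxia and co-culture hypoxia, each with 2 libraries that the labels call biological replicates. All cells of all groups were fixed with formaldehyde and sorted for the leukocyte marker CD45 or for GFP before 50000 of them were treated with Tn5, and the labels do not say which of these sorts each library had. The groups are models in 1 cell line each for microglia and glioma, and no animal was sampled.

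Chemokines are small secreted proteins that guide the movement of leukocytes along a gradient, and they act on receptors with several membrane-spanning helices that signal through Gi proteins. In the brain, microglia are both a source of chemokines such as Ccl2, Ccl3 and Ccl4 and a target of them, and in glioma Ccl2 and its relatives are known to draw in monocytes. Many ligand genes are switched on by the transcription factor NF-kappaB, whose recognition sequence is called the kappaB motif, and the genes sit in tight clusters that arose by duplication.

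The upstream sequences below are those of 6 member genes with a peak over the window in at least 1 library. Each is the 250 bases before a gene start, from RefSeq (GRCm38.p6), written 5′ to 3′ on the gene's own strand. Ccl12, Ccl3 and Cxcr3 had a peak over this window in all 8 libraries. Cxcr4 had one in 5 libraries, Ccr4 in 3 and Cxcl10 in 1. Windows of Ccl25, Ccl27a and Ccr1 also had a peak, in 7, 3 and 2 libraries, and are not printed. Capitals mark matches, on either strand, to the kappaB motif, to TGANTCA (the AP-1 site), to AGGAAGT (the core bound by the myeloid factor PU.1), or to ACGTG or GCGTG (the core of the hypoxia response element).
Ccl12, plus strand, chr11:82101595-82101844: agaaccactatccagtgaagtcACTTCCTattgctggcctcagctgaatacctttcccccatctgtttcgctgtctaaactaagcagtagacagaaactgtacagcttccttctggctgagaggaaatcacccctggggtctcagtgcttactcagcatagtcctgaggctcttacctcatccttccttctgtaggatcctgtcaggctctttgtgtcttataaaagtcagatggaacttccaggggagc
Ccl3, minus strand, chr11:83649379-83649628: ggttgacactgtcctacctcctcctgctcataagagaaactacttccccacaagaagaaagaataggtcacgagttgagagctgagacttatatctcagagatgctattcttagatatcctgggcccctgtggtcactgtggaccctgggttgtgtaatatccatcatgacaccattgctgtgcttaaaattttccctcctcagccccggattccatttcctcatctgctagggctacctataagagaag
Cxcr3, minus strand, chrX:101734148-101734397: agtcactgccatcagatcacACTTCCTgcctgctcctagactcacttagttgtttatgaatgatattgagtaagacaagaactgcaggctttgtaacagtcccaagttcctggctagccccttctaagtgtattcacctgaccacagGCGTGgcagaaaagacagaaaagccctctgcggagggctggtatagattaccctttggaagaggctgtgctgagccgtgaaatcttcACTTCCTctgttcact
Cxcr4, minus strand, chr1:128592300-128592549: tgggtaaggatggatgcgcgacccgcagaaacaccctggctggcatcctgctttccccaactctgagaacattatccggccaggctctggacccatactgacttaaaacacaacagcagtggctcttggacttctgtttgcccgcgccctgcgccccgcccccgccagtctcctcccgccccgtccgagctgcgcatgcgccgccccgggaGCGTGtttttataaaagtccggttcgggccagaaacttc
Cxcl10, minus strand, chr5:92348890-92349139: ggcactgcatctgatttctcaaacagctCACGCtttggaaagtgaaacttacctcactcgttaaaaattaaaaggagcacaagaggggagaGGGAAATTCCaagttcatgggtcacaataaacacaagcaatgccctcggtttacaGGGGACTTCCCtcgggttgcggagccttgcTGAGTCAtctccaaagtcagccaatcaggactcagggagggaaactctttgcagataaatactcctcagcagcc
Ccr4, minus strand, chr9:114496545-114496794: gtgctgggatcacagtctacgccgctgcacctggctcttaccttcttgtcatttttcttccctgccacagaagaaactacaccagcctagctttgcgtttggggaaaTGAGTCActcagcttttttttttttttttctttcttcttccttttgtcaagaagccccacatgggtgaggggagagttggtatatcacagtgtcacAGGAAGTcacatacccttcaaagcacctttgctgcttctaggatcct

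Counted from the gene start, the Ccl12 window holds 1 AGGAAGT match on the opposite strand at -228 to -222, and the Ccl3 window holds none of the 5 motifs. Cxcr3 has AGGAAGT matches at -230 to -224 and -16 to -10 and a GCGTG at -103 to -99. The Cxcl10 window has the most matches of the 6, with kappaB matches at -159 to -150 and at -104 to -94 and a TGANTCA at -74 to -68. Cxcl1, Cxcl2 and Cxcl3, neighbouring genes for neutrophil attractants, carry the same kappaB core, shown in capitals within 31 bases each.
Cxcl1, plus strand, chr5:90891164-90891194: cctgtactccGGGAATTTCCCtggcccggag
Cxcl2, plus strand, chr5:90903792-90903822: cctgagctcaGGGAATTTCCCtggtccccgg
Cxcl3, plus strand, chr5:90786018-90786048: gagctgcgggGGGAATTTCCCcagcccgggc

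No library had a peak over the starts of these 3 genes, so the windows are shown for what the lists do not hold there. RefSeq promoter entries matched 38 of the 53 genes. Among those without a match were Ccl11, Ccl2, Ccl21c, Ccl24, Ccl26, Ccl4, Ccl5, Ccl7, Ccr10, Ccr7, Cxcl16, Cxcl17, Cxcl5 and Cxcr5. These 38 genes have 45 windows, since 4 genes have several starts, and a gene was counted if any of its windows held the motif. A kappaB match lay in a window of 10 of the 38 genes (Ccl20, Cxcl3, Cxcl1, Cxcl2, Cxcl10, Ccr1, Ccr3, Ccl1, Ccl9 and Ccr6), against 9.08% of all 17492 genes with windows of the same length, counted in the same way. TGANTCA lay in 6 (7.19% of all genes), AGGAAGT in 6 (8.43%), ACGTG in 5 (20.0%) and GCGTG in 15 (36.7%). Motifs and strands were searched one by one, so matches can overlap, and a match is a run of letters, not a measured binding site.

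Over all lists together, about as large a share of chemokine and receptor genes as of other genes had a peak nearby. Of the 52 placed genes, 34 (65.4%) had a peak within 10 kb in at least 1 library, against 69.9% of 21774 protein-coding genes. Such a region was found for 23 of 36 ligands and 11 of 16 receptors. All 6 Cxcr genes had one, as did 5 of 10 Ccr, 15 of 24 Ccl and 8 of 12 Cxcl genes. The 18 genes with no peak in any list were Ccl20, Ccl21d, Ccl21b, Ccl27b, Ccl19, Ccl21a, Cxcl3, Cxcl15, Cxcl12, Ccl22, Ccl17, Ccr8, Ccr9, Ccr2, Ccl8, Ccr7, Cxcl14 and Ccr6. They include the lymphoid homing ligands Ccl19 and Ccl21a with their receptor Ccr7, and Ccr2, the monocyte receptor for Ccl2.

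Overlapping peaks from all lists were joined into regions, and 53 of the 40784 regions lay within 10 kb of a member gene. They were 307 to 1243 bp wide, 10 were shared by 2 member genes, and 10 lay closer to a gene outside the family. Only 7 (13.2%) had a peak in all 8 libraries, against 15.6% of all regions. At the other end, 15 (28.3%) rested on a single library, against 26.7% of all regions, and 8 of those came from the monoculture hypoxia libraries. The genes with a peak within 10 kb in every library were the ligands Ccl2, Ccl7, Ccl12, Ccl3, Ccl4 and Cxcl17 and the receptor Cxcr3. Of these, Ccl7 counted through regions shared with Ccl2, Ccl4 through regions shared with Ccl3, and Cxcl17 through a region over the start of Lipe. The region in the body of Ccl7 had a peak in monoculture hypoxia replicate 1 alone.

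**Figure D1:**
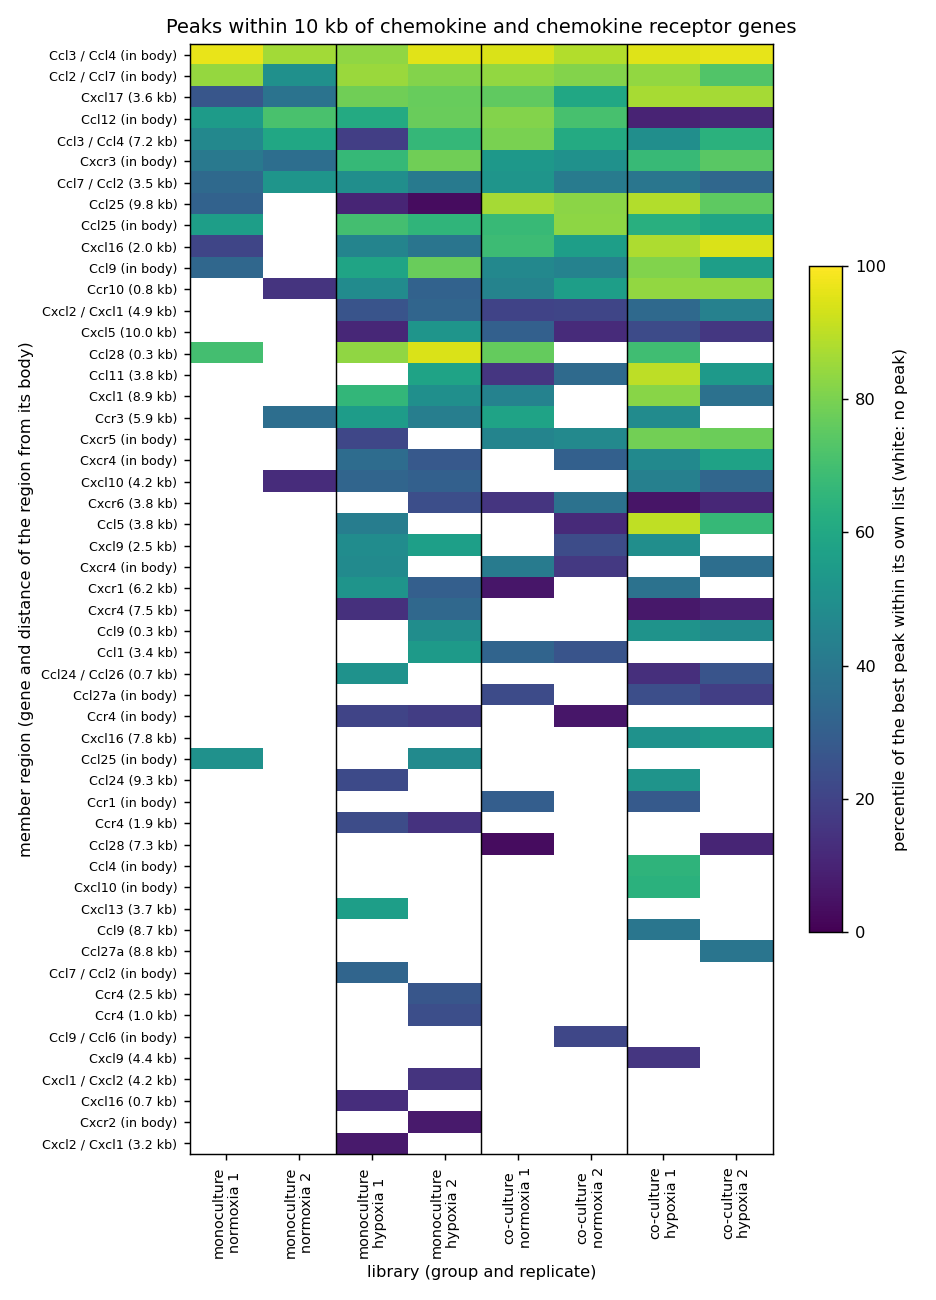
Percentile of the strongest peak in 52 of the 53 member regions (rows, with the distance of the region from the gene body in kb) in the 8 libraries (columns), where 100 is the strongest peak of a library's own list and white is no peak. The 7 upper rows have a peak in all 8 libraries, and the monoculture normoxia columns have the fewest coloured cells, 13 and 10.

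The lists differed in length, from 9910 peaks in monoculture normoxia replicate 2 to 29658 in co-culture hypoxia replicate 1. The background coverage solved from the deposited values ran from 0.76 to 1.45 fragments per position, and the member peaks held a median of 18 to 35 fragments at their summits, against 17 to 30 for all peaks. The microglia and macrophage marker genes fixed for a check of the label all had a peak within 10 kb in some library (12 of 12), with 7 to 12 of them in each library. Of 12 glioma and glial marker genes, the lists of monoculture normoxia had a peak near 1 and 0. The counts were 2 and 3 for monoculture hypoxia, 6 and 3 for co-culture normoxia, and 8 and 6 for co-culture hypoxia. Monoculture normoxia had the shortest lists, with peaks near 43.1% and 35.9% of all protein-coding genes, against 57.8% to 64.9% for the other libraries. Among those others the cultures met at 3 marker genes. Olig2, Sox9 and Fabp7 had no peak in any library. The part of these glial marker peaks in the culture comparisons below was not tested. Bulk lists cannot tell a site that is open in more cells from a site that is more open in each cell.

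Member genes with a nearby peak numbered 11 and 10 in monoculture normoxia, 26 and 25 in monoculture hypoxia, 24 and 23 in co-culture normoxia, and 29 and 24 in co-culture hypoxia. The group means were 10.5 ± 0.707, 25.5 ± 0.707, 23.5 ± 0.707 and 26.5 ± 3.54 genes (SD, n = 2 each). Both monoculture normoxia libraries lay below the other 6, which ran from 23 to 29 genes. The share of all protein-coding genes with a peak moved in the same direction, from 43.1% and 35.9% in monoculture normoxia to 57.8% and 58.7%, 59.3% and 60.3%, and 64.9% and 60.9% in those 3 groups. Member genes were at 19.2% to 55.8% of the 52 placed genes, and in each of the 8 libraries this was below the share of all genes. Of the 53 regions, 13 and 10 had a peak in monoculture normoxia (30.8% and 23.1% of all regions), 33 and 33 in monoculture hypoxia (57.3% and 62.3%), 26 and 24 in co-culture normoxia (51.7% and 51.5%), and 37 and 29 in co-culture hypoxia (70.7% and 51.5%). When each list was cut to its 9910 strongest peaks, the length of the shortest list, the count was 10 and 10, 10 and 10, 10 and 9, and 15 and 13 genes. The share of all protein-coding genes with a peak in the same lists was 36.1% and 35.7%, 34.3% and 32.2%, 38.9% and 40.8%, and 40% and 43.6%. In these equal-number lists the co-culture hypoxia libraries had the most member genes. The share of all genes was highest in co-culture hypoxia replicate 2 (43.6%), while that of replicate 1 (40%) was below that of co-culture normoxia replicate 2 (40.8%). The low count of monoculture normoxia was no longer present.

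**Figure D2:**
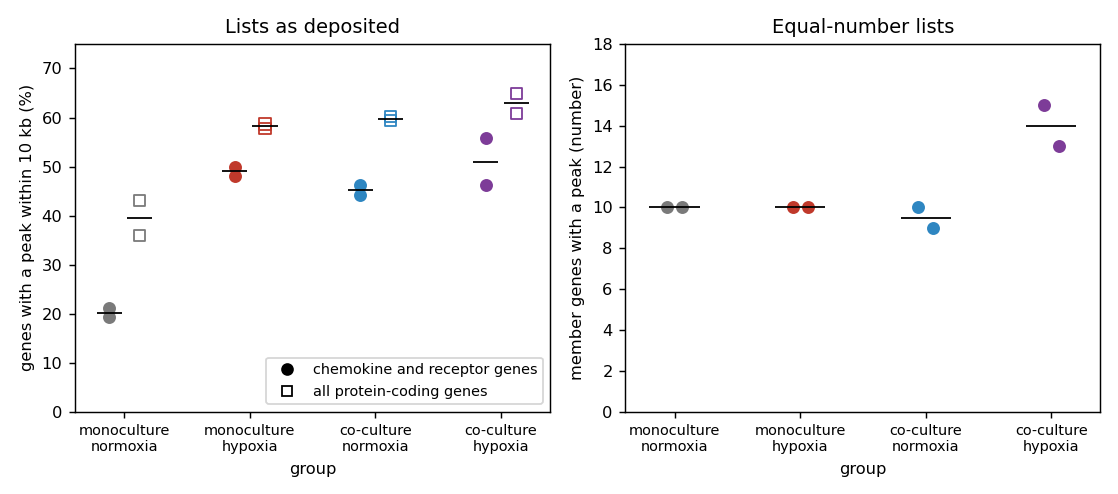
Left, share of the 52 placed chemokine and receptor genes (filled circles) and of all protein-coding genes (open squares) with a peak within 10 kb, in percent. Right, number of member genes with a peak when every list is cut to its 9910 strongest peaks. Points are libraries and lines are group means (n = 2). The monoculture normoxia libraries are lowest on the left, and on the right they are at 10 genes, as both monoculture hypoxia libraries are.

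Percentiles and common ranks are used for the strength of a region. The percentile ranks a peak's deposited -log10 p within its own list (100 is the strongest), and since lists of different lengths give percentiles that shift with length, it only describes. The common rank is the percentile among the 6375 regions that had a peak in all 8 libraries, a set of the same size in each library. These ranks were converted to normal scores and tested with limma across all 6375 regions, with Benjamini-Hochberg adjustment, so a shift is in units of the SD of the ranks. With 2 libraries a group, the spread between libraries was pooled over the groups.

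The monocyte-attracting ligands share a cluster on chromosome 11 (Ccl2, Ccl7, Ccl11, Ccl12, Ccl8 and Ccl1), and in it the start of Ccl12 was the one region that passed limma's threshold on common ranks, of the 3 tested there. Ccl12 is a mouse ligand of the monocyte receptor Ccr2. Its region (chr11:82101139-82102084, GRCm38) covers the gene start, the upstream window printed above and the first part of the body, with the strongest summit at -198 from the start. The percentile was 55.0 and 71.3 in monoculture normoxia, 61.2 and 77.3 in monoculture hypoxia, 81.5 and 70.8 in co-culture normoxia, and 10.0 and 11.2 in co-culture hypoxia. The summits held 18, 26, 31, 41, 38, 36, 14 and 12 fragments in the same order.

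Both co-culture hypoxia libraries were therefore far below the other 6, which overlapped each other. The common ranks were 33.5 and 57.8, 25.1 and 42.8, 49.8 and 31.6, and 0.533 and 1.18, so in co-culture hypoxia this was among the weakest regions shared by all libraries. With hypoxia Ccl12 fell by 1.24 (SE 0.235, limma adjusted p = 0.0203), and with co-culture it fell by 1.06 (SE 0.235, limma adjusted p = 0.0293). The oxygen response differed between the cultures by -1.86 (SE 0.470), which did not pass limma's adjustment over all regions (adjusted p = 0.363). In the equal-number lists Ccl12 had a peak in all 6 other libraries and in neither co-culture hypoxia library.

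The Ccl12 shifts kept their direction when each library was left out, but the calls were not kept in every fit. Calls over all regions also fell in the fits that lost them. Leaving out each library in turn gave oxygen shifts of -1.40 to -1.09 with limma adjusted p of 0.0152 to 0.0915, and 3 of the 8 fits kept the call. It was lost without either monoculture hypoxia library, either co-culture hypoxia library, or co-culture normoxia replicate 2. The culture call was lost without these 5 libraries and without co-culture normoxia replicate 1, with shifts of -1.21 to -0.901 and adjusted p of 0.0205 to 0.123.

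Ccl2, the main monocyte attractant, kept a strong region over its lower end (chr11:82035098-82035961, also within 10 kb of Ccl7). Its percentile was 84.1 and 50.2 in monoculture normoxia, 84.9 and 81.6 in monoculture hypoxia, 83.9 and 81.6 in co-culture normoxia, and 84.0 and 72.7 in co-culture hypoxia. The groups overlapped, and the common-rank shift was 0.0126 with oxygen (95% interval -0.534 to 0.559) and -0.0438 with culture (-0.591 to 0.503). A second region between Ccl2 and Ccl7 was weaker, with percentiles of 33.3 to 52.0 in the 8 libraries and no call. Ccl11, the eosinophil attractant eotaxin, had a region 3808 bp away in both co-culture normoxia libraries (15.7 and 34.7), both co-culture hypoxia libraries (90.2 and 53.8) and 1 monoculture hypoxia library (57.9). Ccl1, a ligand of Ccr8, had a region 3351 bp from its body in both co-culture normoxia libraries (32.2 and 26.0) and in monoculture hypoxia replicate 2 (54.5), and in neither co-culture hypoxia library. Ccl8, another monocyte attractant, had none.

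**Figure D3:**
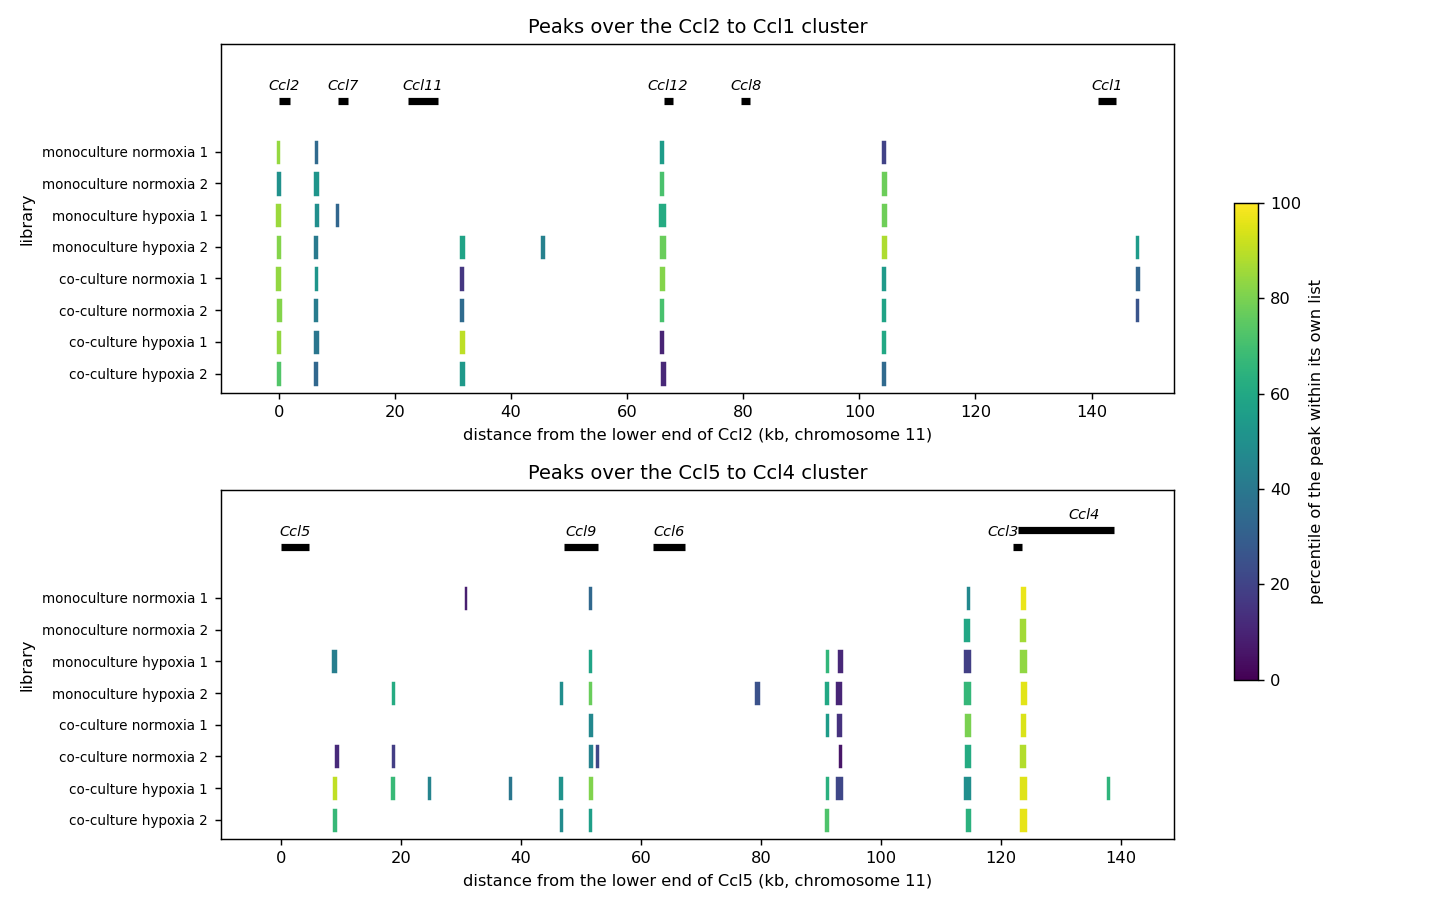
Peaks of each library (rows) over the Ccl2 to Ccl1 and the Ccl5 to Ccl4 clusters on chromosome 11, by distance in kb from the lower end of the first gene, coloured by percentile within the library's own list. Black bars are gene bodies, and peaks are drawn to scale with a thin outline. The Ccl12 peak is dark in the 2 co-culture hypoxia rows, and the Ccl3 peak is bright in all 8 rows. Peaks over 10 kb from a gene, such as the one between Ccl8 and Ccl1, are drawn but are not member regions.

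The second cluster on chromosome 11 holds the macrophage inflammatory proteins and their relatives, and the start of Ccl3 had the highest median percentile of all member regions (94.7), though in monoculture hypoxia replicate 1 it ranked below the regions of Ccl2 and Ccl28. Ccl3 and Ccl4 attract macrophages and T cells. The region over the Ccl3 start (chr11:83648940-83649993), which also lies in the annotated body of Ccl4, had percentiles of 96.7 and 86.2 in monoculture normoxia, 83.3 and 95.7 in monoculture hypoxia, 94.4 and 88.5 in co-culture normoxia, and 95.0 and 96.4 in co-culture hypoxia. The groups overlapped. The common-rank shift was -0.0763 with oxygen (95% interval -0.681 to 0.528) and 0.00802 with culture (-0.596 to 0.612). The window printed above for this gene has none of the 5 motifs. A region 7157 bp from Ccl3 had percentiles of 18.6 to 80.1 with no call.

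The other genes of that cluster had weaker or patchier regions. Ccl5, a chemokine made by activated macrophages and T cells, had a region 3804 bp from its body that was picked for mention after its values were seen. It had percentiles of 90.4 and 67.0 in the co-culture hypoxia libraries, 42.2 in monoculture hypoxia replicate 1 and 12.0 in co-culture normoxia replicate 2, and no peak in the other 4. Ccl9, a rodent ligand of Ccr1, had a region in its body in 7 libraries (33.2 to 80.9) and another 304 bp away in both co-culture hypoxia libraries (51.2 and 47.8) and in 1 monoculture hypoxia library (49.0). Ccl6, its neighbour, was within 10 kb of 1 region in 1 library. Ccl4 had a further region near its other end in co-culture hypoxia replicate 1 alone (65.2).

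The neutrophil attractants of chromosome 5 act on Cxcr2 and had peaks between and beside the genes, not over their starts. The region 8924 bp from Cxcl1 had percentiles of 66.1 and 49.9 in monoculture hypoxia, 44.2 in co-culture normoxia replicate 1, and 82.4 and 37.1 in co-culture hypoxia. Of 3 regions between Cxcl1 and Cxcl2, the one 4913 bp from Cxcl2 had 26.1 and 32.6, 20.0 and 20.8, and 34.2 and 43.9 in those 3 groups. The other two had a peak in 1 library each, 14.9 in monoculture hypoxia replicate 2 and 7.30 in monoculture hypoxia replicate 1. None of these 4 had a peak in monoculture normoxia, the group with the shortest lists, and none passed into more than 2 equal-number lists. The region near Cxcl5, 9978 bp from its body, covers the start of the platelet chemokine gene Pf4 and had percentiles of 11.2 to 52.0 in the 6 libraries other than monoculture normoxia. Cxcl3 and Cxcl15 had none.

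Cxcl9 and Cxcl10 are interferon-induced ligands of Cxcr3. The start of Cxcl10, with its kappaB matches, had a peak in co-culture hypoxia replicate 1 alone (percentile 64.0, 49 fragments at the summit). A second region, 4214 bp from Cxcl10 and inside Art3, was found in monoculture normoxia replicate 2 (12.5), in monoculture hypoxia (32.6 and 30.7) and in co-culture hypoxia (43.7 and 33.1). Cxcl9 had a region 2522 bp away with 48.8 and 56.5 in monoculture hypoxia, 23.2 in co-culture normoxia replicate 2 and 49.3 in co-culture hypoxia replicate 1. Cxcl13, the B cell attractant, had a peak in 1 library.

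Cxcl17, described as a mucosal attractant of myeloid cells, was the one member gene whose region rose with hypoxia past limma's threshold on common ranks. The region (chr7:25395256-25396498) lies 3555 bp from Cxcl17 and covers the start of Lipe, the gene for hormone-sensitive lipase, so it is nearer to a gene outside the family. Its percentiles were 26.6 and 38.1 in monoculture normoxia, 78.1 and 76.9 in monoculture hypoxia, 75.4 and 59.4 in co-culture normoxia, and 87.0 and 86.7 in co-culture hypoxia. Common ranks were 9.47 and 20.1, 46.4 and 42.3, 38.6 and 18.3, and 60.8 and 69.0. Within each culture both hypoxia libraries were above both normoxia libraries. The shift with oxygen was 0.958 (SE 0.219, limma adjusted p = 0.0290) and that with culture 0.503 (limma adjusted p = 0.146). On the logit of the percentile in each library's own list, where list length also counts, the culture shift passed (1.08, limma adjusted p = 0.0369). The oxygen call was kept in 3 of 8 fits that left out a library (0.804 to 1.11, limma adjusted p of 0.0296 to 0.112), and was lost without either hypoxia library of either culture or co-culture normoxia replicate 2. On common ranks within the equal-number lists the shift was 1.41 and the call was kept (SE 0.363, limma adjusted p = 0.0396). In the fit over all regions of equal-number lists, described below, the shift was 0.440 and was not called (limma adjusted p = 0.195, and 0 of 8 fits without a library called it).

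Cxcl16, a membrane-bound ligand of Cxcr6, had a region 1964 bp from its body (chr11:70451818-70452425) at the start of Med11, a Mediator subunit gene. This region and that of Ccl25 below were singled out after their values were seen. The percentiles were 21.0 in monoculture normoxia replicate 1, 45.1 and 39.0 in monoculture hypoxia, 68.5 and 56.0 in co-culture normoxia, and 87.8 and 94.3 in co-culture hypoxia, with 103 fragments at the summit in the last library and 11 in the first. Every co-culture library was above every monoculture library. A further Cxcl16 region 7752 bp away was present in both co-culture hypoxia libraries (51.0 and 54.6) and in none of the others.

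Ccl25, a ligand of Ccr9 in gut homing, had a region 9757 bp from its body (chr8:4369777-4370448) with percentiles of 31.6 in monoculture normoxia replicate 1, 10.2 and 3.42 in monoculture hypoxia, 86.4 and 82.5 in co-culture normoxia, and 88.6 and 75.3 in co-culture hypoxia. The summits held 9 to 11 fragments in monoculture and 37 to 58 in co-culture. The cultures did not overlap. The region over the start shared with Elavl1 had percentiles of 56.0 to 83.2 in 7 libraries, and those of the cultures overlapped. The third Ccl25 region, in the gene body, had a peak in monoculture normoxia replicate 1 (50.5) and monoculture hypoxia replicate 2 (48.0) and in none of the co-culture libraries.

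Ccl28 and Ccl27a are ligands of Ccr10. Ccl28 had a region 251 bp from its far end, again singled out after its values were seen, with 70.2 in monoculture normoxia replicate 1, 83.3 and 94.5 in monoculture hypoxia, 76.5 in co-culture normoxia replicate 1 and 69.2 in co-culture hypoxia replicate 1. It was missing from replicate 2 of every group but monoculture hypoxia. Ccl27a had a region over its start in co-culture normoxia replicate 1 (22.9) and in co-culture hypoxia (24.2 and 18.4), and no monoculture library had it. Ccl24, an eotaxin with Ccl26 beside it, had a region in co-culture hypoxia (13.6 and 25.9) and in 1 monoculture hypoxia library (51.0).

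Cxcr4, the receptor for Cxcl12, gave the only member region that had a peak in all 4 hypoxia libraries and in no normoxia library. Its region 7523 bp from the gene (chr1:128580197-128580676) had percentiles of 13.8 and 33.8 in monoculture hypoxia and 6.34 and 9.32 in co-culture hypoxia, with 11 to 22 fragments at the summit, and no peak in normoxia. It was a weak peak in each list and was in no equal-number list. The region over the Cxcr4 start had 35.3 and 27.9 in monoculture hypoxia, 30.9 in co-culture normoxia replicate 2, and 47.6 and 57.6 in co-culture hypoxia. It was missing in monoculture normoxia. A region in the gene body was present in 4 libraries of 3 groups (16.8 to 47.9).

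Cxcr3, the receptor for Cxcl9 and Cxcl10, had a region over its start (chrX:101733676-101734465) in every library. Percentiles were 40.3 and 36.2 in monoculture normoxia, 66.8 and 78.1 in monoculture hypoxia, 53.2 and 50.7 in co-culture normoxia, and 67.3 and 74.5 in co-culture hypoxia. The common ranks were 19.7 and 18.4, 31.4 and 44.4, 13.8 and 12.0, and 28.8 and 49.2, so all 4 hypoxia libraries were above all 4 normoxia libraries. The limma shift with oxygen was 0.703 (95% interval 0.246 to 1.16), which missed the threshold after adjustment (adjusted p = 0.0559). On the logit of the percentile in each library's own list it passed (1.14, limma adjusted p = 0.0293), a scale on which list length also counts. Within the equal-number lists the percentiles were 19.7 and 36.2 in monoculture normoxia, 18.4 and 41.9 in monoculture hypoxia, and 2.23 and 44.4 in co-culture hypoxia, with no peak in co-culture normoxia. Hypoxia and normoxia libraries overlapped there in monoculture. In the fit over all regions of those lists, described below, the shift was 0.505 (limma adjusted p = 0.128). Co-culture normoxia lacked the region there, so the limit given below for Ccl12 holds for this value too.

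**Figure D4:**
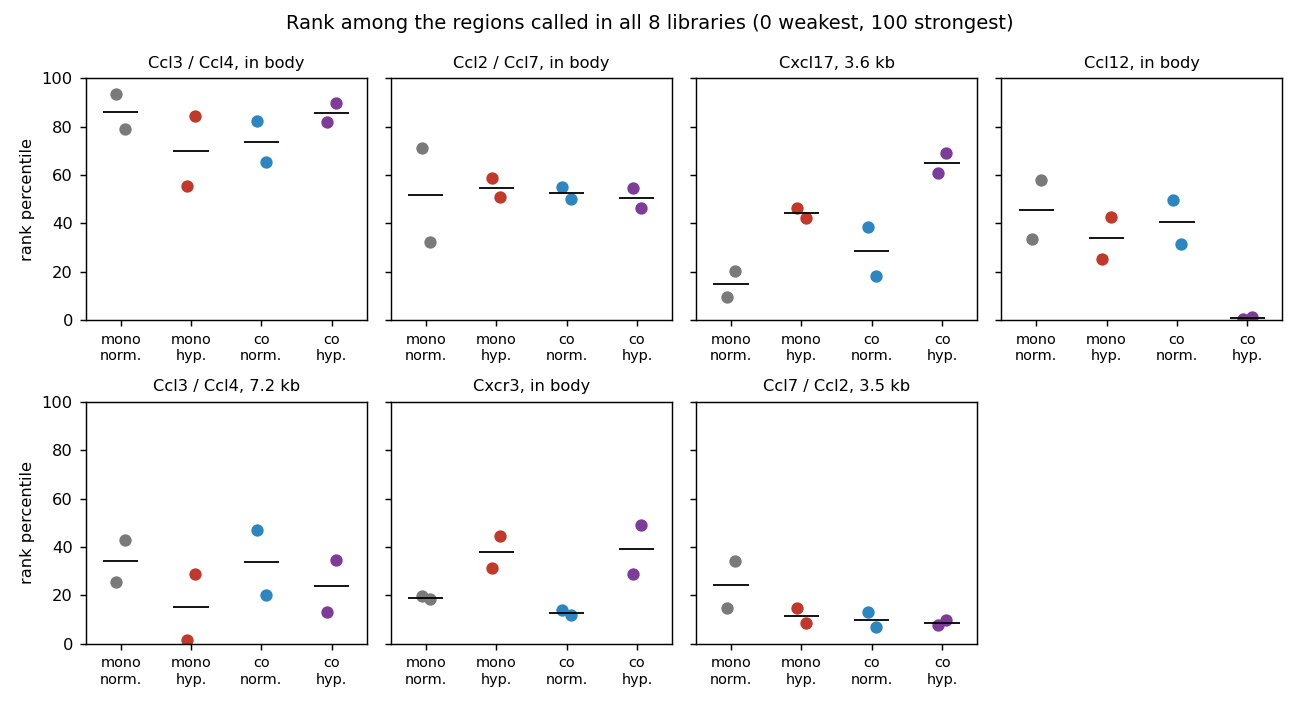
Rank percentile of the 7 member regions found in all 8 libraries, among the 6375 regions found in all 8 (0 weakest, 100 strongest), by group. Points are libraries and lines are group means (n = 2). The Ccl12 region is at 0.533 and 1.18 in co-culture hypoxia, and the Cxcl17 and Cxcr3 regions are higher in hypoxia in both cultures.

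Cxcr5, the receptor for Cxcl13 on B cells, had a region in its body with percentiles of 21.2 in monoculture hypoxia replicate 1, 45.3 and 47.1 in co-culture normoxia, and 78.8 and 77.4 in co-culture hypoxia. Ccr10 had a region 774 bp away, at the start of Plekhh3, with 15.1 in monoculture normoxia replicate 2, 48.2 and 31.6, 44.9 and 56.0, and 83.7 and 83.7 in the other 3 groups. In both regions the co-culture hypoxia libraries were the highest. Ccr4, the receptor for Ccl17 and Ccl22, had a region over its upstream window in monoculture hypoxia (20.7 and 18.2) and co-culture normoxia replicate 2 (5.93), and another 1914 bp away in monoculture hypoxia alone (23.1 and 14.6). The start of Ccr1 had a peak in co-culture normoxia replicate 1 (29.8) and co-culture hypoxia replicate 1 (28.5). Ccr3 had a region in 5 libraries, Cxcr6 one inside Fyco1 in 5 and Cxcr1 one in 4, while Cxcr2 had a peak in 1 library.

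Over the family, the shares of regions gained and lost in the lists as deposited were close to those of all regions. A region was counted as gained when every library of the first condition and none of the second had it, and as lost in the reverse case. Hypoxia in monoculture gained 9 of the 53 member regions (17.0%, against 17.7% of all regions), at Cxcr1, Cxcr4 (2 regions), Cxcl5, Cxcl1, Cxcl2, Cxcl9 and Ccr4 (2 regions), and lost 0 (0.179% of all). Hypoxia in co-culture gained 5 (6.09% of all), at Cxcr4, Cxcl16, Ccl9, Cxcl10 and Ccl24, and lost the 1 at Ccl1 (2.05%). Co-culture in normoxia gained 7 (12.5%), at Cxcr4, Ccl11, Ccl1, Cxcl5, Cxcl2, Cxcr5 and Cxcr6, and lost 0 (0.181%).

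Co-culture in hypoxia gained 2 (5.83%), at Cxcl16 and Ccl27a, and lost the 2 at Ccr4 (3.76%). Across both cultures, hypoxia gained the 1 at Cxcr4 (2.08%) and lost 0 (0.0196%). Across both oxygen levels, co-culture gained 0 (1.98%) and lost 0 (0.027%). These comparisons share libraries, and 2 libraries against 2 cannot reach a threshold of 0.05 in an exact permutation test, so the counts are a description.

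Equal list lengths moved these counts. Only 22 member regions remained in the equal-number lists, 3 of them (at Ccl3, Ccl2 and Cxcl17) in all 8. Hypoxia in monoculture then gained 0 (7.39% of 19790 regions) and lost the 1 between Ccl2 and Ccl7 (5.15%). Co-culture in hypoxia gained 5 of the 22, a larger share than the 7.39% of all regions, and lost Ccl12 (7.01% of all). The 5 were at Ccl25, Ccl5, Ccr10, Cxcl16 and Cxcr5. Hypoxia in co-culture gained 4 of the 22, also a larger share than the 5.45% of all regions, and lost Ccl12 (5.73% of all). The 4 were at Ccl5, Ccl9, Cxcr3 and Cxcr5. Co-culture in normoxia gained 1 (4.88%), at Cxcl16, and lost 2 (2.96%), at Cxcr3 and between Ccl2 and Ccl7. Co-culture over both oxygen levels gained the Cxcl16 region (1.02%).

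Of the 7 member regions tested with limma on common ranks, 2 were called with oxygen (10.1% of all 6375 regions) and 1 with culture (10.8%). With hypoxia 1 was higher (Cxcl17, 4.83%) and 1 lower (Ccl12, 5.25%). With co-culture 0 were higher (4.99%) and 1 was lower (Ccl12, 5.84%). The median shift of the 7 was -0.0763 with oxygen and -0.0438 with culture, against -0.00246 and 0.0059 over all regions. For the interaction, 0 of 7 member regions and 0 of 6375 regions (0%) passed limma's adjusted threshold, while 1 and 625 had an unadjusted p under 0.05. Two-sided exact permutation tests within the other factor (36 relabellings, 12 tests, smallest possible p 0.0556) gave p = 0.0556 for Cxcl17 and for Cxcr3 with oxygen, where the mean rank differed by 33.0 and 22.5 points. For Ccl12 the exact permutation p was 0.111 for oxygen (-25.8 points) and 0.111 for culture (-19.0 points).

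Within the equal-number lists the Cxcl16 region at the Med11 start had percentiles of 30.7 and 3.09 in co-culture normoxia and 63.4 and 87.6 in co-culture hypoxia, and no peak in monoculture. The Cxcr5 region had 36.5 and 50.7 in co-culture hypoxia and no peak in the other 6 lists. The distal Ccl25 region had 8.01 in monoculture normoxia replicate 1, 70.0 and 61.5 in co-culture normoxia, and 66.0 and 46.0 in co-culture hypoxia.

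A fit chosen after the data were seen ranked every region of the equal-number lists, 19790 in all, and gave a library without the region the tied lowest rank, which understates the spread between libraries that lack it. Over all regions it called 7.42% with oxygen (3.96% higher and 3.46% lower) and 4.82% with culture (2.79% higher and 2.03% lower). A region such as those of Cxcl16 and Cxcr5 enters this fit only through the libraries that have it, so its call would restate where peaks were found, and no test is given for these 2 regions or the distal Ccl25 region. The same limit holds for Ccl12, which is missing from the lists of both co-culture hypoxia libraries. Its shifts in this fit were -0.913 with oxygen, which is not counted as support for the call above, and -0.555 with culture, which did not pass (limma adjusted p = 0.135).

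**Figure D5:**
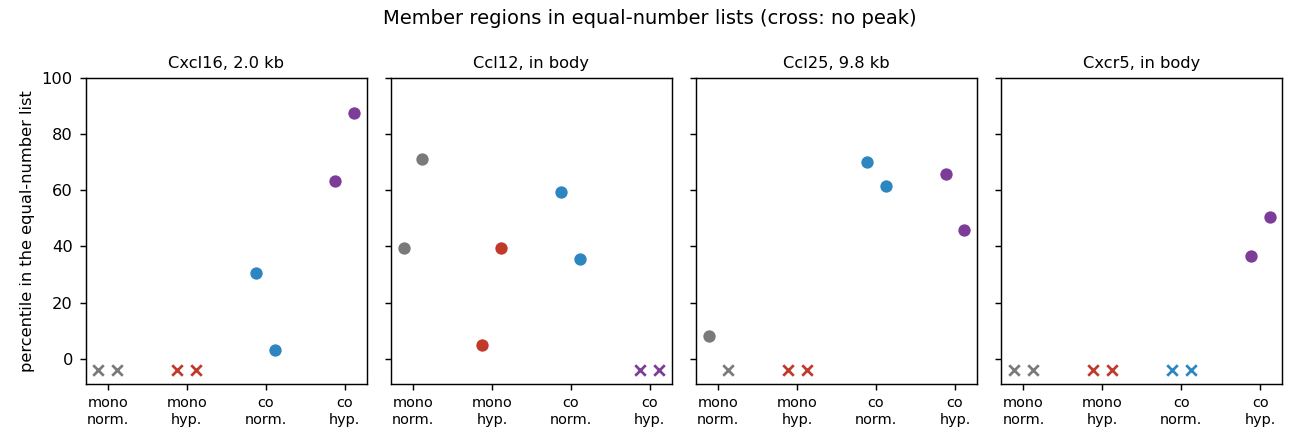
Percentile of 4 member regions within the equal-number lists (9910 peaks each), by group, with a cross below 0 where a library has no peak. The 4 are the member regions called in the fit chosen after the data were seen, so they were picked by their values and their patterns are no test. Points are libraries. Cxcl16 has a peak in the 4 co-culture libraries alone, Ccl12 in all but the 2 co-culture hypoxia libraries, and Cxcr5 in those 2 alone.

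Of 14 further chemokines and related receptors, 12 had a region, against 69.9% of all genes. Of the 3 regions tested, 1 was higher with hypoxia (4.83% of all regions), 1 higher with co-culture (4.99%) and 1 lower with co-culture (5.84%) (median shifts -0.0189 with oxygen and 0.110 with culture). The region of Gpr35, a receptor once proposed for Cxcl17, had common ranks of 39.2 and 15.3 in monoculture normoxia, 76.0 and 81.6 in monoculture hypoxia, 56.2 and 24.8 in co-culture normoxia, and 77.2 and 70.2 in co-culture hypoxia, with a shift of 1.18 with oxygen (SE 0.256, limma adjusted p = 0.0255). The call was kept in 3 of 8 fits that left out a library (limma adjusted p of 0.0170 to 0.0924). The region of Cx3cr1, the fractalkine receptor that marks microglia, had 38.7 and 38.7, 20.3 and 34.7, 8.47 and 5.32, and 13.6 and 9.42. It fell by 0.901 with co-culture (SE 0.197, limma adjusted p = 0.0279), a call kept in 2 of 8 such fits (limma adjusted p of 0.0304 to 0.122). Every co-culture library was below every monoculture library there. The region of Xcr1, the receptor for lymphotactin, rose by 0.878 with co-culture (SE 0.229, limma adjusted p = 0.0423), and 0 of 8 such fits kept the call (limma adjusted p of 0.0510 to 0.154). All 3 calls were lost when any 1 of the 4 hypoxia libraries or co-culture normoxia replicate 2 was left out. In the fit over all regions of equal-number lists the limma adjusted p was 0.0646 for Gpr35, 0.0690 for Cx3cr1 and 0.110 for Xcr1.

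Of 20 genes of chemokine receptor signalling, 18 had a region and 11 regions were tested (median shifts 0.239 with oxygen and 0.307 with culture). The 1 call was Prex1, a Rac activator downstream of Gi proteins, which rose with hypoxia by 0.904 (SE 0.251, limma adjusted p = 0.0495), and 0 fell with hypoxia, against 4.83% higher and 5.25% lower over all regions. The Prex1 call was kept in 1 of 8 fits that left out a library, the one without monoculture normoxia replicate 1 (limma adjusted p of 0.0216 to 0.174), and in the fit over equal-number lists its shift was 0.494 (limma adjusted p = 0.138). Regions of Pik3cg, the PI 3-kinase gamma subunit, Elmo1, a partner of Dock proteins, and Ccrl2, a chemerin-binding receptor, were found in all 4 hypoxia libraries and no normoxia library. These were 2 of 88 regions of the signalling genes and 1 of 25 regions of the further chemokines and receptors, against 2.08% of all regions. Their lowest percentiles were 17.6, 41.1 and 25.7.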

How the data were processed

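ATAC-seq was measured in 8 libraries in 4 groups of 2, and the authors deposited a separate narrowPeak list for each, with no pooling of replicates. Per the submitters' processing notes the build was mm10 and the tools were Trimmomatic 0.36, HISAT2 2.1.0, Picard, SAMtools, deepTools and MACS2 2.1.1.2, with no roles or settings given. Each deposited list holds a fold enrichment over the library's background, a -log10 p, a -log10 q, a score and a summit offset. The lowest -log10 q in the deposited lists was 2.00 to 2.08. The deposited score follows the -log10 q and was not used further. These values are each list's own and were ranked within a list only. Read totals and Tn5 shifting are not given in the sources used here.

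Peaks were merged where they overlapped by at least 1 bp. Fragments at a summit were solved from the deposited fold and p-value, on the assumption of a Poisson background, for 99.7% to 100% of sampled peaks. Gene positions and upstream windows came from RefSeq tables of GRCm38.p6. Ranks were tested with limma 3.58.1 in R 4.3.3 without a replicate block, at an adjusted p of 0.05, after a check on simulated shifts. Same-numbered libraries did not deviate together (correlations of -0.040 to 0.176), so numbers were not used as pairs. Python 3.11.15, numpy 2.4.6, pandas 2.3.3, scipy 1.17.1 and matplotlib 3.10.9 were used.

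Per-library values are given for member regions that separate 4 libraries from 4, that are the 3 with the highest minimum percentile in a direction of a 2 against 2 contrast, that pass limma's threshold, that are among the strongest found in all libraries, or that lie at a gene start. The values of 1 member gene are not reported here. The members, gene lists and tests were chosen with earlier results of these data known. Alternatives were equal-number lists, a -log10 q of at least 5, 1 kb around genes, windows of 250 bp on each side of summits, an overlap of at least 50% of a region, other ranks, the replicate block, and leaving out each library. The labels call the replicates biological but do not name separate cultures, so p-values measure the spread between these libraries, which may be technical.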

Additional observations from a re-analysis of the deposited data

How the results depend on the processing

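A -log10 q of at least 5, summit windows and an overlap of at least 50% of a region kept the counts of member genes and of gained and lost regions within 1.5 times. Equal-number lists did not. Members with a region went from 34 to 19, the hypoxia minus normoxia difference in member genes from 9 to 2.25, the co-culture minus monoculture difference from 7 to 1.75, and the interaction from -12 to 4.5, which reversed it. Gained and lost regions became 0 and 1 for hypoxia in monoculture, 1 and 2 for co-culture in normoxia, and 5 and 1 for co-culture in hypoxia, with 0 gained for oxygen and 1 gained for culture over 4 against 4 libraries. The shares over all regions of these lists are given with the counts in the report. Equal-number lists have fewer peaks for the longer libraries by construction. Searching 1 kb gave 20 members with a region, differences of 4.25 and 2.75 and an interaction of -4.5. Gained regions were then 2 and 2 for hypoxia in monoculture and co-culture, 2 and 1 for co-culture in normoxia and hypoxia and 0 for oxygen, and lost regions 0 for hypoxia in co-culture and 1 for co-culture in hypoxia. At 1 kb, 38.5% of members and 61.2% of all genes had a region, and oxygen, culture and interaction differences were 8.17, 5.29 and -8.65 percentage points for members and 9.79, 12.1 and -13.5 for all genes. Of all regions within 1 kb of a gene, 17.5% and 5.84% were gained with hypoxia in monoculture and co-culture, 13.8% and 6.35% with co-culture in normoxia and hypoxia and 1.83% with oxygen, and 2.05% and 3.31% were lost with hypoxia in co-culture and co-culture in hypoxia, against the counts above of 25 member regions.

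Leaving out each library gave interactions of -14.5 to -9.5. Gained regions ranged from 9 to 18 (hypoxia in monoculture), 5 to 11 (hypoxia in co-culture), 7 to 12 (co-culture in normoxia), 2 to 8 (co-culture in hypoxia), 1 to 2 (oxygen) and 0 to 2 (culture) of 53 member regions, and over all regions from 17.7% to 30.2%, 6.09% to 20.6%, 12.5% to 21.4%, 5.83% to 16.8%, 2.20% to 4.45% and 2.03% to 2.77% in that order. Lost regions ranged from 1 to 3 for hypoxia in co-culture, 0 to 1 for co-culture in normoxia and 2 to 8 for co-culture in hypoxia, and over all regions from 2.05% to 6.82%, 0.181% to 2.56% and 3.76% to 11.4%. Calls among members ranged from 0 to 2 with oxygen and 0 to 1 with culture, and calls over all regions from 0 (without monoculture hypoxia replicate 1) to 924 with oxygen and 0 to 1011 with culture. In every fit that lost a Ccl12, Cxcl17, Gpr35, Cx3cr1 or Prex1 call, calls over all regions for the same contrast fell too. The cause was not tested.

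Member calls with oxygen were 2, against 3 on the logit of own-list percentiles, where Cxcr3 was added, and 1 in equal-number lists, where Ccl12 could not be tested because the co-culture hypoxia libraries lacked it. With culture they were 1, against 2 on that logit, where Cxcl17 was added, and 0 in equal-number lists. They were 3 in the fit over all regions of those lists, which was added after the data were seen. Those 3 (Cxcl16, Ccl25 and Cxcr5) entered that fit mainly or only through co-culture lists, so the count is no test. With the replicate block 2 and 1 members were called, and 602 and 617 regions in all against 643 and 690. The numbers name libraries only. Depth limits what a missing peak shows. A site without a peak is one that did not pass the authors' threshold at 0.76 to 1.45 background fragments per position, and the weakest member peaks held 8 to 12 fragments.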
